A study of Schizosaccharomyces pombe with 9 samples.

Results

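The genes described here encode Ste11 and 8 other proteins that carry the mating pheromone signal of fission yeast: *ste11*, *ste4*, *ste6*, *ras1*, *byr1*, *byr2*, *spk1*, *gpa1* and *rgs1*. They were picked by symbol in the annotation of the array, where all 9 had a probe set, among 2899 named *S. pombe* genes. The study examined deletions that had come out of a screen for sensitivity to DNA damage, and asked how transcript levels differed from the wild type (WT) in cells growing without any damaging agent. Transcripts were measured on Affymetrix Yeast Genome 2.0 arrays, on which short probes for one gene form a probe set. One array was made per strain, for 8 deletions and WT (9 arrays), all from cells in exponential growth at an OD600 of 0.5 to 1.0. The deletions were of *SPAC3F10.17*, *ash2*, *SPAC27D7.08C* (the gene *SPAC27D7.08c*), *SPBC2A9.02*, *meu29*, *sgf73*, *pab1* and *sec65*. According to the methods of the study, they came from a commercial library of haploid strains, and their mating type and other alleles are not given in the labels. The WT array is labelled SP286 diploid with the genotype h+ ade6-M210 ura4-D18 leu1-32. In a ratio to WT, the deletion cannot be told apart from the difference in labelled ploidy or from any difference in mating type or other alleles. All 8 ratios of a gene share the WT array. From flow cytometry, the study proposed that cells of the *sgf73*, *meu29*, *sec65* and *pab1* deletions had become diploid, most severely in *sec65* and *pab1*. It proposed a defect in DNA replication for the *SPBC2A9.02* and *SPAC27D7.08c* deletions. The part of these states in the ratios was not tested.

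Fission yeast cells mate when nitrogen runs out and a partner of the opposite mating type is near. Pheromone binds a receptor coupled to the G protein alpha subunit Gpa1, and the signal passes, together with the small GTPase Ras1, to a MAP kinase cascade of Byr2, Byr1 and Spk1. Ste11, an HMG-box transcription factor, stands at the end of this cascade and drives the genes of mating and early meiosis, its own gene among them. In growing cells the program is held down by nutrient signals through the cAMP-dependent kinase Pka1 and the kinase Pat1.

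Each value below is a signal, that is, 2 to the power of the deposited log2 value, and each ratio is the signal of a deletion over that of WT. With 1 array per genotype there was no replicate check, so no p-value or error is given, and precision is limited by the number of arrays. Background was set on each array from probe sets for the other yeast species, at a signal of 36.2 to 40.2. The lowest signal of any of the 9 genes was 85.4, so that all of them lay above background on all 9 arrays. On the arrays of their own deletions, the transcript of *ash2* was at background, at least 23.0-fold lower than in WT, and those of *sgf73* and *meu29* were 33.8-fold and 12.6-fold lower. That of *pab1* stood at 0.609 of WT and that of *sec65* at 0.679 on the arrays so labelled, which are therefore called by their labels. Probe sets named for the other 3 deleted genes were not analysed here. As the arrays measured RNA of whole cultures, fewer cells that express a gene and less RNA per cell cannot be told apart.

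Transcripts of the pheromone pathway were higher than in WT mainly in 3 of the deletions and lower mainly in 1. In *SPAC27D7.08c*Δ, 6 of the 9 genes were at least 2-fold higher (*ste11*, *ste4*, *ste6*, *spk1*, *gpa1* and *rgs1*), beside 1.92% of all genes. In *SPBC2A9.02*Δ it was 5 of 9, the same set without *ste4*, beside 1.5% of all genes, and in *sgf73*Δ the same 5 as in *SPBC2A9.02*Δ, beside 2.71%. In *meu29*Δ, *ste6* and *spk1* were at least 2-fold higher, beside 1.6% of all genes. In *SPAC3F10.17*Δ, by contrast, 4 of the 9 (*ste11*, *ste4*, *spk1* and *rgs1*) were at least 2-fold lower, beside 2.09%, while *ste6* was higher, beside 1.25%. In *ash2*Δ, *ste4* was at least 2-fold lower, beside 1.5% of all genes, and 0 of the 9 were higher, beside 0.732%. None of the 9 passed 2-fold in either direction on the arrays labelled *pab1*Δ (0.697% of all genes higher and 0.662% lower) and *sec65*Δ (0.661% and 0.696%). No member was at least 2-fold lower in *SPAC27D7.08c*Δ, *SPBC2A9.02*Δ, *meu29*Δ or *sgf73*Δ, where 0.418%, 0.768%, 2.89% and 3.27% of all genes were.

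Over the 8 deletions, 19 of the 72 ratios of these genes (26.4%) were at least 2 and 5 (6.94%) were at most 0.5, and the other 48 lay between. Among all genes the shares were 1.38% and 1.54%. The median log2 ratio of the 9 genes was 1.39 in *SPAC27D7.08c*Δ, 1.35 in *SPBC2A9.02*Δ and 1.14 in *sgf73*Δ. It was -0.66 in *SPAC3F10.17*Δ and -0.49 in *ash2*Δ, and 0.10, 0.05 and -0.23 in *meu29*Δ and on the arrays with *pab1*Δ and *sec65*Δ labels. The median of all genes lay between -0.03 and 0.07 in each deletion.

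**Figure D1:**
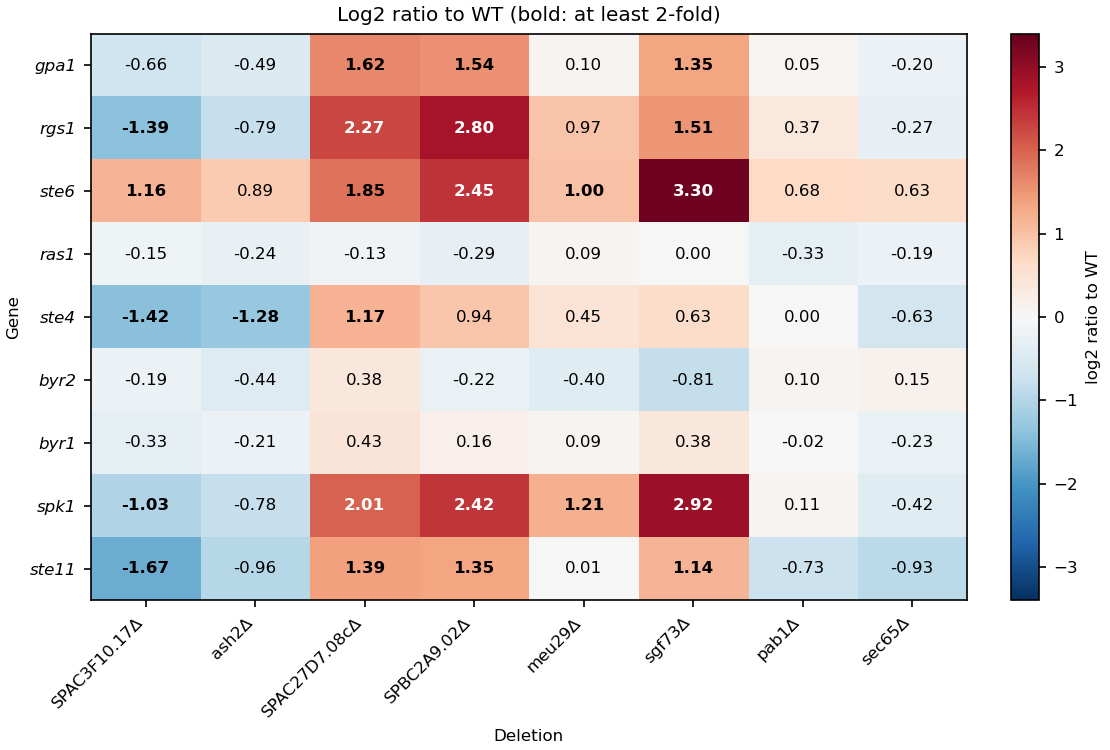
Log2 ratio to WT of each of the 9 genes (rows) in each of the 8 deletions (columns), with 1 array per genotype, and with bold type for ratios of at least 2-fold. Red columns stand at *SPAC27D7.08c*Δ, *SPBC2A9.02*Δ and *sgf73*Δ, the *ste6* row is above WT throughout, and *ras1*, *byr1* and *byr2* hold no bold value.

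At the receptor end, the gene of the G protein alpha subunit, *gpa1*, had a signal of 1283 in WT. It was highest in *SPAC27D7.08c*Δ (3949.9), *SPBC2A9.02*Δ (3742) and *sgf73*Δ (3259.9), which gave ratios of 3.08, 2.92 and 2.54. It was 1376 in *meu29*Δ, 1331 and 1114 on the arrays with *pab1*Δ and *sec65*Δ labels, and 809 and 915 in *SPAC3F10.17*Δ and *ash2*Δ. The 3 highest arrays were thus set off from all others, the gap between *sgf73*Δ and *meu29*Δ being 2.37-fold, while the remaining 5 deletions lay within 0.631 to 1.07 of WT.

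Rgs1 stimulates GTP hydrolysis by Gpa1 and so turns the signal down. Its gene ranged over 18.3-fold, the widest range of the 9 genes and the 18th widest of 2833 genes above background on all arrays, whose median range was 1.54-fold. The signal of *rgs1* was 2472 in *SPBC2A9.02*Δ, 1715 in *SPAC27D7.08c*Δ, 1010.5 in *sgf73*Δ and 697 in *meu29*Δ, against 355 in WT. It was 458 and 294 on the arrays with *pab1*Δ and *sec65*Δ labels, and 135 and 205 in *SPAC3F10.17*Δ and *ash2*Δ. The ratios ran from 6.96 to 0.381, and *meu29*Δ, at 1.96, lay just short of 2-fold. Both the activator *gpa1* and its inhibitor *rgs1* were therefore highest on the same 3 arrays and lowest on the same 2.

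Ste6 is the exchange factor that loads Ras1 with GTP for mating, and its transcript was the only one of the 9 to be above WT in all 8 deletions. Its signal was 85.4 in WT, 839 in *sgf73*Δ, 466 in *SPBC2A9.02*Δ, and also high, at 307, in *SPAC27D7.08c*Δ. It was 190.4 in *SPAC3F10.17*Δ, 171 in *meu29*Δ, 158 in *ash2*Δ, and 137 and 132 on the arrays with *pab1*Δ and *sec65*Δ labels. The ratio of 9.82 in *sgf73*Δ was the fourth highest of 2878 genes measured there, and the lowest ratio of *ste6* was 1.54. The WT signal was the lowest of the 9, which bears on all 8 ratios of *ste6*. Against the median of the other 7 deletions in place of WT, *ste6* still stood at a log2 ratio of 2.29 in *sgf73*Δ and 1.44 in *SPBC2A9.02*Δ, but in the other 3 of its 5 it was no longer 2-fold higher, at -0.15 in *meu29*Δ, 0.15 in *SPAC3F10.17*Δ and 0.84 in *SPAC27D7.08c*Δ.

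The transcript of Ras1 itself, which also acts in cell shape, varied least. The signal of *ras1* was between 1937 (the array labelled *pab1*Δ) and 2586 (*meu29*Δ), with 2429.6 in WT, a range of 1.34-fold that was only the 2153rd widest of 2833. Its ratios ran from 0.797 to 1.06. The gene of the mating exchange factor of Ras1, *ste6*, varied more, over 9.82-fold, or 6.36-fold among the 8 deletions without WT.

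The MAP kinase kinase kinase Byr2 and the MAP kinase kinase Byr1 form the upper tiers of the cascade. The signal of *byr2* ran from 306 in *sgf73*Δ to 699 in *SPAC27D7.08c*Δ, with 539 in WT, and its ratios from 0.568 to 1.30. Of the 9 genes, *byr2* was the only one with its lowest signal in *sgf73*Δ, where 5 others were at least 2-fold higher. That of *byr1* ran from 2632 in *SPAC3F10.17*Δ to 4439 in *SPAC27D7.08c*Δ, with 3296 in WT, and its ratios from 0.798 to 1.35. Neither passed 2-fold in any deletion, but *byr1* had the same 3 highest arrays as *gpa1* and *rgs1*.

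Ste4 is an adaptor that binds Byr2 and is needed for its activation. The signal of *ste4* was 2583 in *SPAC27D7.08c*Δ, 2206 in *SPBC2A9.02*Δ, 1780.3 in *sgf73*Δ and 1574 in *meu29*Δ, against 1149 in WT. It was 1152 and 740.0 on the arrays with *pab1*Δ and *sec65*Δ labels, and 430.1 and 472 in *SPAC3F10.17*Δ and *ash2*Δ. The ratio was 2.25 in *SPAC27D7.08c*Δ and 1.92, just under the threshold, in *SPBC2A9.02*Δ, and it was 0.411 and 0.374 in *ash2*Δ and *SPAC3F10.17*Δ.

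Spk1 is the MAP kinase at the bottom of the cascade. In *sgf73*Δ its transcript was 7.56 times that of WT, with a signal of 4925 against 652. The signal of *spk1* was 3481 in *SPBC2A9.02*Δ, 2619 in *SPAC27D7.08c*Δ and 1507 in *meu29*Δ, with ratios of 5.34, 4.02 and 2.31. It was 701 and 487 on the arrays with *pab1*Δ and *sec65*Δ labels, 378 in *ash2*Δ and lowest, at 319, in *SPAC3F10.17*Δ, where the ratio of 0.490 was just past 2-fold. The whole range was 15.4-fold, and *spk1* passed 2-fold in 5 deletions, the same ones as *ste6*, though in *SPAC3F10.17*Δ in the opposite direction. Within the cascade, the MAP kinase gene thus varied far more than those of the kinases above it.

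The transcription factor gene *ste11* had a signal of 2896 in WT and 2911 in *meu29*Δ. It was higher in *SPAC27D7.08c*Δ (7591), *SPBC2A9.02*Δ (7375) and *sgf73*Δ (6399.8), with ratios of 2.62, 2.55 and 2.21. It was lower in all the others, at 1744 and 1523 on the arrays with *pab1*Δ and *sec65*Δ labels, 1491 in *ash2*Δ and, lowest of all, 908 in *SPAC3F10.17*Δ. The last gave a ratio of 0.313, while *ash2*Δ, at 0.515, and the array labelled *sec65*Δ, at 0.526, stayed just short of 2-fold. The range of *ste11* was 8.36-fold, the 40th widest of 2833 genes.

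**Figure D2:**
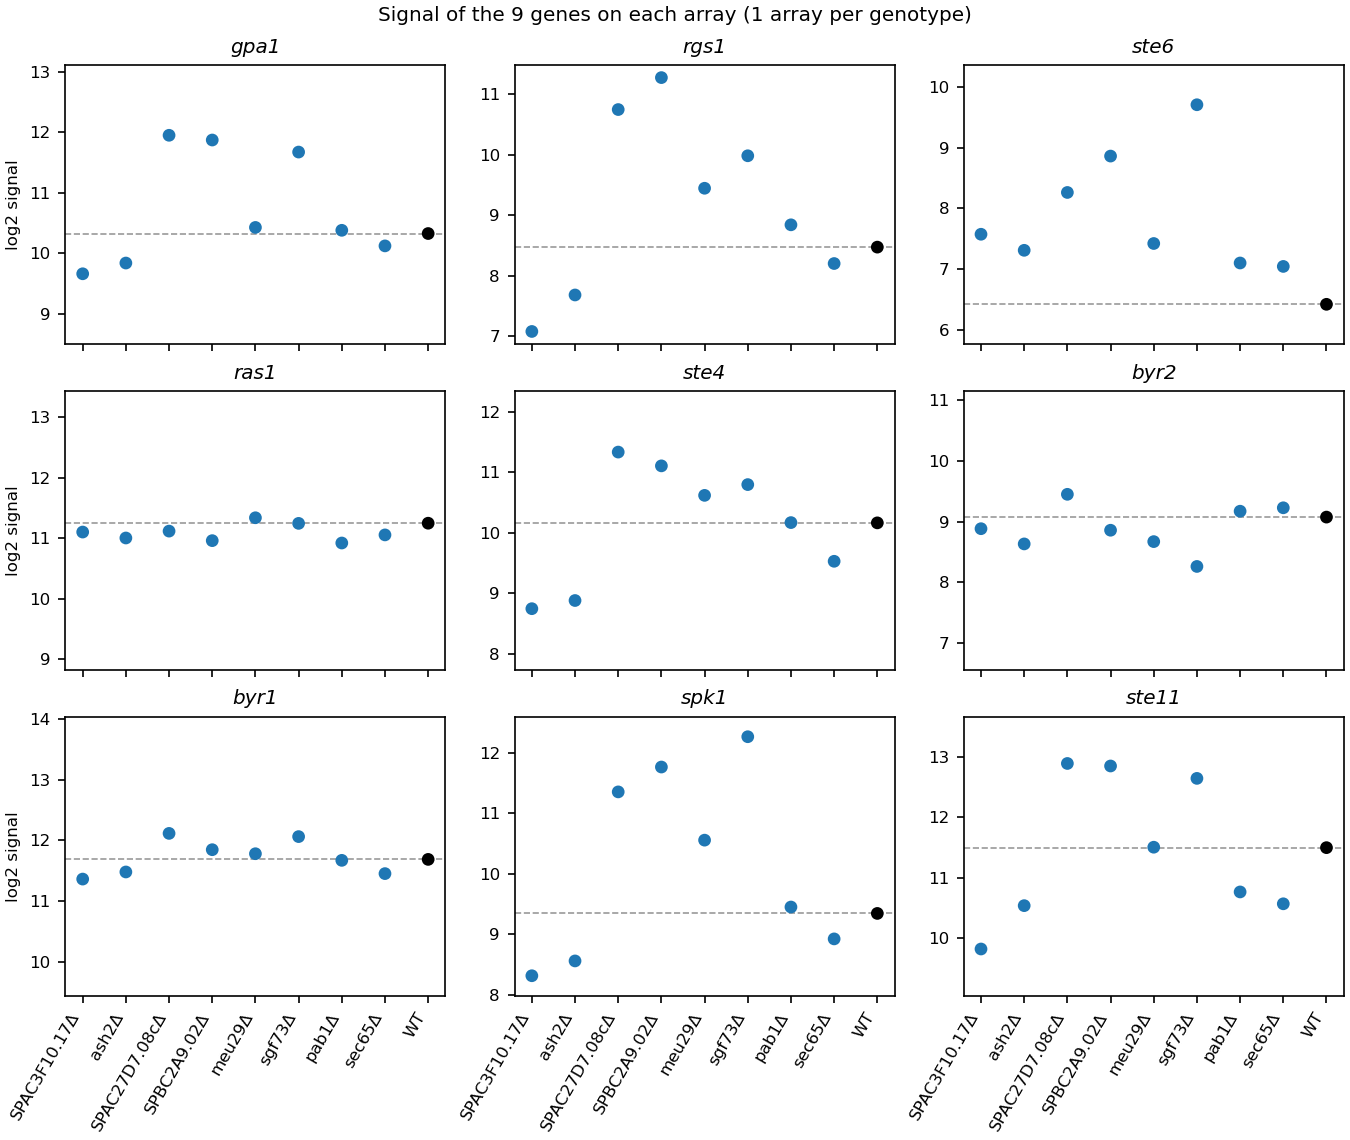
Log2 signal of each of the 9 genes on each array (1 array per genotype, points), with the dashed line at WT. *ste11*, *ste4*, *spk1*, *gpa1* and *rgs1* share their 3 highest and their 2 lowest arrays, *ste6* is lowest in WT, and *ras1* stays within 1.34-fold; levels of different panels are not comparable, since each probe set has its own scale.

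Across the arrays, the order of levels was much the same for most of these genes. In 7 of the 9, the 3 highest arrays were *SPAC27D7.08c*Δ, *SPBC2A9.02*Δ and *sgf73*Δ in some order, the exceptions being *ras1* and *byr2*, whereas 2.47% of the 2833 genes had this trio on top. In 5 of them (*ste11*, *ste4*, *spk1*, *gpa1* and *rgs1*) the 2 lowest arrays were *SPAC3F10.17*Δ and *ash2*Δ, as in 4.09% of all genes. Both sets of arrays were picked from the levels of these same genes. The shares of all genes beside them are therefore a description and not a test. To judge neighbours in the order, the 2 arrays most alike were used, those labelled *pab1*Δ and *sec65*Δ, between which 95% of genes differed by less than 1.20-fold. They are labelled as different deletions and not as replicates, so this is only a guide to the spread. Within this limit lay 5 of the 8 gaps between neighbouring arrays for *ste11*, 6 for *gpa1*, 4 each for *ste4* and *ste6*, 2 for *spk1* and 0 for *rgs1*. For *ras1* and *byr1* all 8 gaps lay within it, and for *byr2* 7 did. The widest gap of *ste11*, 1.14 on the log2 scale, separated *meu29*Δ from *sgf73*Δ, and that of *spk1*, 1.10, separated the array labelled *pab1*Δ from *meu29*Δ.

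Likeness to *ste11* was measured by the correlation of log2 signals over the 9 arrays, as a description, since the points are single arrays of different genotypes. Among the 569 genes with a range of at least 2-fold, the 5 most like *ste11* were *ppk33*, which encodes a protein kinase (Pearson's r of 0.969, Spearman's rho of 0.983), *gpa1* (0.966 and 0.983), *pat1* (0.963 and 0.917), *map1* (0.958 and 0.967) and *uge1*, which encodes a UDP-glucose epimerase (0.955 and 0.983). In all, 13 of the 569 reached an r of 0.9. Of these 5, *pat1* encodes the kinase that restrains Ste11 in growing cells, and *map1* a transcription factor of P cells. Among the pathway genes, r with *ste11* was 0.950 for *rgs1*, 0.945 for *spk1*, 0.938 for *byr1*, 0.931 for *ste4*, 0.683 for *ste6*, 0.210 for *ras1* and -0.07 for *byr2*. Without the 2 arrays farthest from the median of *ste11* (*SPAC3F10.17*Δ and *SPAC27D7.08c*Δ), r was 0.954 for *gpa1*, 0.946 for *spk1*, 0.910 for *rgs1*, 0.889 for *byr1* and 0.869 for *ste4*. That of *ste6* was 0.799 and that of *byr2* -0.53.

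**Figure D3:**
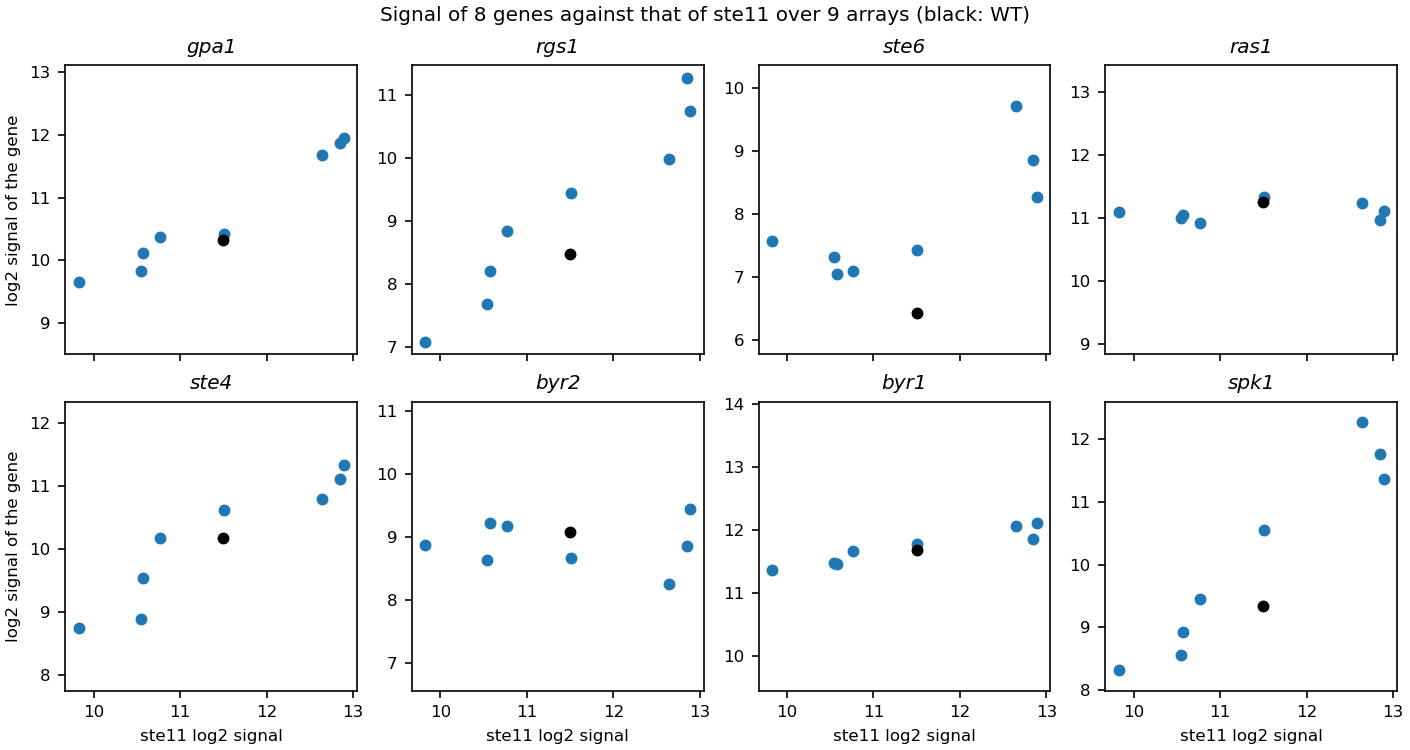
Log2 signal of the other 8 genes against log2 signal of *ste11*, 1 point per array, with WT in black and each panel spanning the same number of log2 units. *gpa1*, *rgs1*, *spk1*, *byr1* and *ste4* climb with *ste11* (r of 0.931 to 0.966), with a shallow slope for *byr1*. *ras1* lies flat, and *byr2* scatters, with an r of -0.07.

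Differences between 2 deletions do not use the WT array, and the study had placed the deletions in pairs by the DNA content seen in flow cytometry. Between *SPAC27D7.08c*Δ and *SPBC2A9.02*Δ, the *ste11* signals differed by 1.03-fold, and none of the 9 genes differed by more than the 1.58-fold that held 95% of all genes. The widest were *ste6* (1.52-fold), *byr2* (1.51-fold) and *rgs1* (1.44-fold). In *SPAC3F10.17*Δ and *ash2*Δ the *ste11* signals differed by 1.64-fold and those of *rgs1* by 1.52-fold, against a limit of 1.75-fold. In both pairs all 9 genes thus differed by less than the limit for 95% of genes.

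Between *meu29*Δ and *sgf73*Δ, which also form a pair, 4 of the 9 genes passed that limit. The signal of *ste6* was 4.89-fold higher in *sgf73*Δ, a difference met by 0.590% of all genes, that of *spk1* 3.27-fold, that of *gpa1* 2.37-fold and that of *ste11* 2.20-fold, against a limit of 1.67-fold for 95% of genes. Between the arrays with *pab1*Δ and *sec65*Δ labels, which were otherwise closest, *rgs1* and *ste4* each differed by 1.56-fold and *spk1* by 1.44-fold, all higher in the former. Of all genes, 0.557%, 0.627% and 1.11% differed by as much between these arrays.

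**Figure D4:**
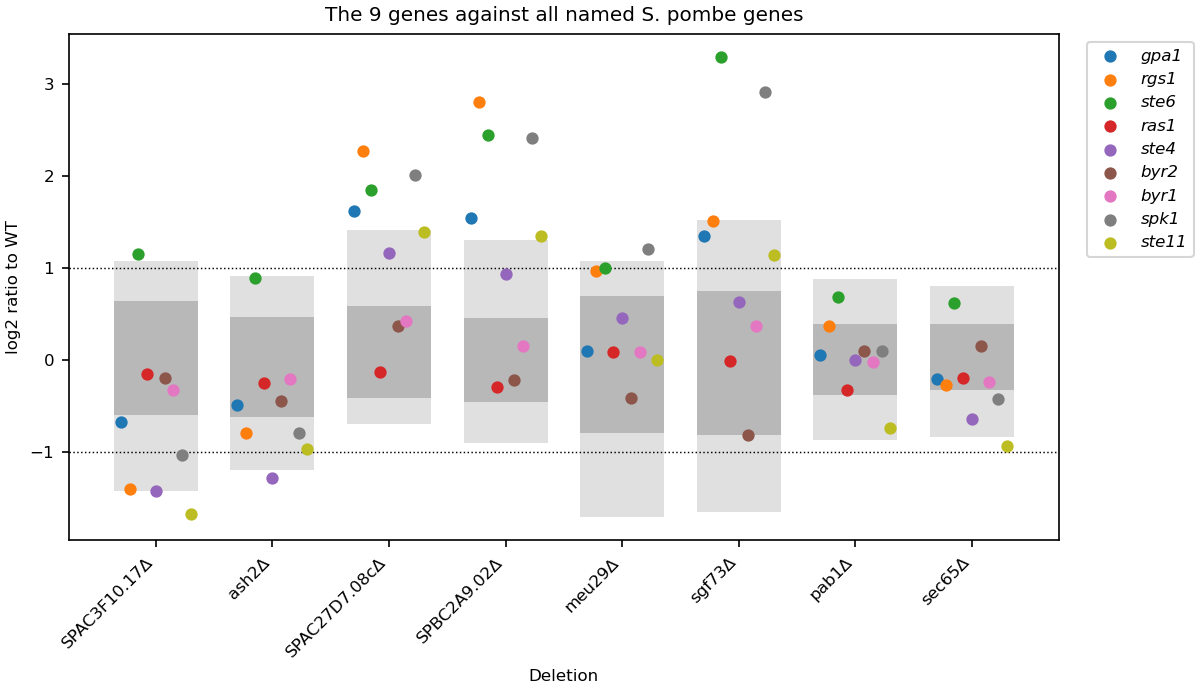
Log2 ratio to WT of the 9 genes (coloured points, 1 per gene) over grey bands of all named genes in each deletion (dark, 5th to 95th percentile, and light, 1st to 99th percentile), with dotted lines at 2-fold. In *SPAC27D7.08c*Δ, *SPBC2A9.02*Δ and *sgf73*Δ 5 or 6 points lie above the upper line, and in *SPAC3F10.17*Δ 4 lie below the lower one.

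The genes known to be driven by Ste11 in mating and early meiosis were taken as a list of 22, of which 17 had a named probe set. Of these 17, 10 were at least 2-fold higher in at least 1 deletion (*mei2*, *mei3*, *map1*, *map2*, *map3*, *map4*, *mfm1*, *mfm2*, *rep1* and *prm1*), 2 at least 2-fold lower (*mei2* and *map1*), and 7 passed in neither direction in any deletion. Of all genes, 5.51% were higher in at least 1 deletion, 6.48% lower and 88.8% neither. By deletion, 9 were higher in *SPAC27D7.08c*Δ (1.92% of all genes), 8 in *SPBC2A9.02*Δ (1.5%), 5 in *sgf73*Δ (2.71%) and 3 in *meu29*Δ (1.6%). There were 2 higher in *ash2*Δ (0.732%) and on the array labelled *sec65*Δ (0.661%), and 1 on the array labelled *pab1*Δ (0.697%) and in *SPAC3F10.17*Δ (1.25%). Lower were *mei2* and *map1* in *SPAC3F10.17*Δ (2.09% of all genes), and *mei2* alone in *ash2*Δ (1.5%) and on the array labelled *sec65*Δ (0.696%). The median log2 ratio of the list was 1.09, 0.85 and 0.63 in *SPAC27D7.08c*Δ, *SPBC2A9.02*Δ and *sgf73*Δ, and between -0.01 and 0.29 in the others.

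The largest ratio belonged to *map2*, which encodes the precursor of the P-factor pheromone. It was 129 times WT in *sgf73*Δ, 116 times in *SPBC2A9.02*Δ and 67.7 times WT in *SPAC27D7.08c*Δ, but 2.28 in *meu29*Δ and 1.25 to 1.72 in the other 4. The gene of the M-factor receptor, *map3*, had ratios of 7.62, 7.31 and 3.82 in the same 3 deletions, 3.42 in *meu29*Δ and 0.921 in *SPAC3F10.17*Δ, its lowest. The ratios of *map1* lay between 0.477, in *SPAC3F10.17*Δ, and 4.42, in *SPAC27D7.08c*Δ. These 3 genes of P cells were thus highest on the 3 arrays where *ste11* was highest, and *meu29*Δ came next. The third P cell marker, the agglutinin gene *map4*, was 3.56 times WT in *SPBC2A9.02*Δ, 2.77 times in *sgf73*Δ and 1.89 times in *SPAC27D7.08c*Δ, but lowest, at 0.926, in *meu29*Δ.

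A different order was seen for *mfm2*, which encodes a precursor of the M-factor pheromone. Its ratio was 27.7 in *SPAC3F10.17*Δ, where *ste11* was lowest, 5.39 in *sgf73*Δ, 4.31 in *SPAC27D7.08c*Δ and somewhat less, 3.85, in *SPBC2A9.02*Δ, and it passed 2-fold in 7 deletions. The lowest ratio of *mfm2* was 1.43, in *meu29*Δ, and all of them share the WT array. The gene *mei2*, whose RNA-binding product is needed for meiosis, was 2.12 times WT in *SPAC27D7.08c*Δ, 2.45 times in *SPBC2A9.02*Δ, and stood at 0.212 in *ash2*Δ, 0.301 in *SPAC3F10.17*Δ and 0.466 on the array labelled *sec65*Δ. The ratio of *rep1*, a transcription factor of early meiosis, reached 2.48 in *SPAC27D7.08c*Δ and passed 2-fold in 4 deletions, but was 1.01 in *sgf73*Δ.

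As the pathway is expressed in relation to mating type, the markers of P cells (h+) and M cells (h-) are given as sums of their signals. Named probe sets covered 3 of the 6 P markers (*map2*, *map3* and *map4*) and 7 of the 9 M markers, and the genes of the mating type locus itself were not analysed here. All were above background on all arrays, so that none of the markers was at 0. The P sum was 1355 in WT, 1496 to 1863 in 5 deletions, and 9496, 16765 and 17252 in *SPAC27D7.08c*Δ, *SPBC2A9.02*Δ and *sgf73*Δ. In these last deletions the ratios of *map2* were 67.7, 116 and 129, and those of *map3* and *map4* were 1.89 to 7.62. The rise of the P sum thus leans on *map2*, and the sum was not taken without it. The M sum was 2314 in WT, 2436 to 2689.7 in 4 deletions, 3229, 3248 and 3833 in *sgf73*Δ, *SPBC2A9.02*Δ and *SPAC27D7.08c*Δ, and 5058 in *SPAC3F10.17*Δ. The high M sum of *SPAC3F10.17*Δ came from *mfm2*. Without that gene, the sum of the other 6 M markers was lowest there, at 2029, with 2205 in WT, and highest, at 2639.7 (*sgf73*Δ), 2827 (*SPBC2A9.02*Δ) and 3362 (*SPAC27D7.08c*Δ). Both sums, the latter without *mfm2*, were thus highest on the same 3 arrays as *ste11*. A sum is weighted towards the markers with the highest signals, and not every marker followed it. In *sgf73*Δ, *mam1* stood at 0.731 of WT and *sxa2* at 0.933, with *mfm1*, *mfm3*, *mam2* and *mam3* at 1.22 to 1.80. The part of mating type in these results was not tested.

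The genes that act on *ste11* or Ste11 from upstream, in the cAMP, stress MAP kinase, Pat1 and Tor2 pathways, passed 2-fold mainly in *meu29*Δ. Of 30 measured, 23 passed in neither direction in any deletion, beside 88.8% of all genes, and the median of the list lay between -0.27 and 0.12 in each. Only *lsg1* was higher, in *meu29*Δ and *sgf73*Δ, by at most 2.88-fold. All 6 that were lower were so in *meu29*Δ alone, where 2.89% of all genes were: *atf1* (ratio of 0.307), *pka1* (0.392), *git5* (0.421), *gpa2* (0.430), *cgs1* (0.492) and *zfs1* (0.494). They include the catalytic and regulatory subunits of the cAMP-dependent kinase (*pka1* and *cgs1*) and the alpha subunit of the glucose-sensing G protein (*gpa2*). In *meu29*Δ *ste11* itself had a ratio of 1.01. The ratios of *pat1* ran from 0.534 in *SPAC3F10.17*Δ to 1.52 in *SPBC2A9.02*Δ.

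Next to the mating branch, Ras1 also acts through Cdc42 in cell shape. None of the 9 measured genes of that branch and of the other Ras1 regulators passed 2-fold in any of the 8 deletions, in 72 ratios. As 88.8% of all genes did not either, this count is close to that of genes at large. The lowest median of that list was -0.38, in *sgf73*Δ. Of all genes, 5.51% were at least 2-fold higher in at least 1 deletion and 6.48% lower. Among 18 genes of the Sty1 and Pmk1 MAP kinase modules and their phosphatases, none was at least 2-fold higher. Lower were *pyp1* (0.353) and *ptc1* (0.472), both in *meu29*Δ, and *pyp2*, which encodes a phosphatase of the stress MAP kinase Sty1. The last was at least 2-fold lower in 7 deletions, from 0.0983 of WT in *sgf73*Δ up to 0.373 on the array labelled *sec65*Δ, and stood at 0.624 in *SPAC27D7.08c*Δ. All of these ratios of *pyp2* share the WT array and were not set against the other deletions.

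Loss of nitrogen is the usual trigger of *ste11*, and 14 genes had been listed for it, 13 of them measured. The list holds *inv1*, which encodes invertase, *ppr1*, a symbol that more than 1 gene has carried, and *mei2* from above, so that it is not purely one of nitrogen. Of the 13, 5 were at least 2-fold higher in at least 1 deletion (*isp4*, *isp5*, *amt1*, *amt3* and *mei2*) and 6 at least 2-fold lower (*isp4*, *isp5*, *isp7*, *amt1*, *inv1* and *mei2*). Of all genes, 5.51% were higher in at least 1 deletion and 6.48% lower. The amino acid permease gene *isp5* was higher in 4 deletions, with a ratio of 4.67 in *SPBC2A9.02*Δ, and stood at 0.187 in *sgf73*Δ. The oligopeptide transporter gene *isp4* was 3.20 times WT in *SPBC2A9.02*Δ and 0.342 of it in *sgf73*Δ. In *sgf73*Δ, where 5 of the pathway genes were at least 2-fold higher, 0 of the 13 were higher, close to the 2.71% of all genes. There were 5 of the 13 lower, beside 3.27% of all genes, with *inv1* lowest at 0.0242.

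**Figure D5:**
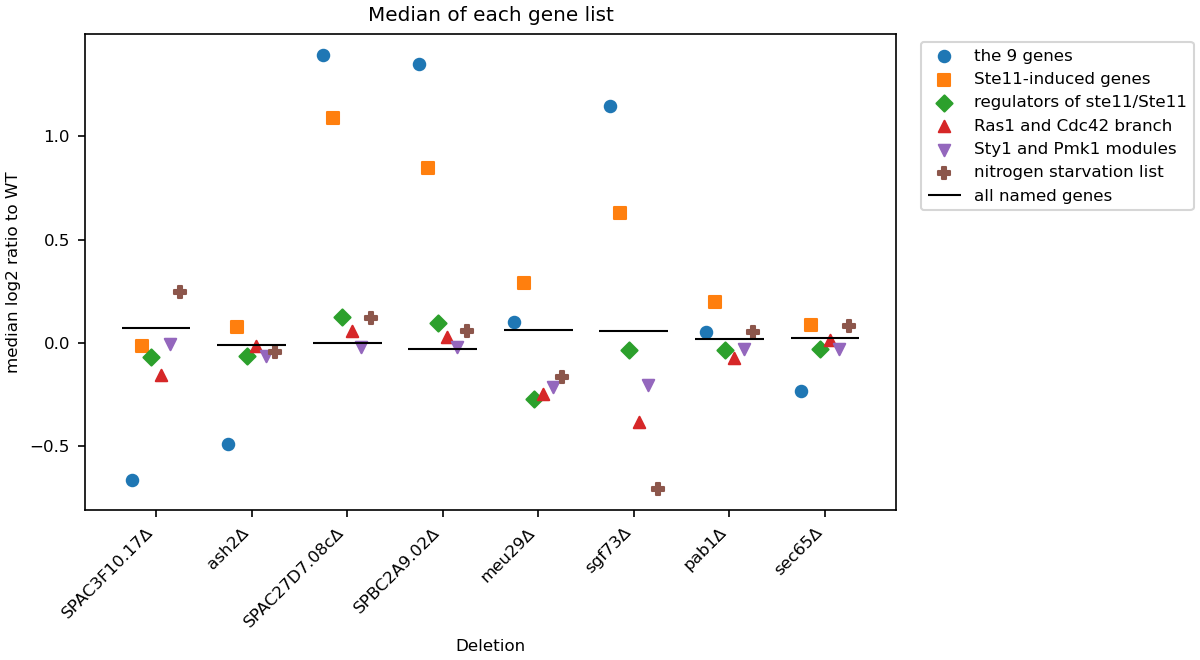
Median log2 ratio to WT of each gene list (points) and of all named genes (black lines) in each deletion. The 9 pathway genes and the genes driven by Ste11 lie above the line in *SPAC27D7.08c*Δ, *SPBC2A9.02*Δ and *sgf73*Δ (medians of 0.63 to 1.39). The other lists lie below it in *sgf73*Δ: nitrogen (-0.71), Cdc42 branch (-0.38), Sty1 and Pmk1 modules (-0.21) and upstream regulators (-0.03). The same lists lie below it in *meu29*Δ: upstream regulators (-0.27), Cdc42 branch (-0.25), Sty1 and Pmk1 modules (-0.21) and nitrogen (-0.16).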

How the data were processed

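Labelled cRNA made from total RNA was hybridised to 9 Affymetrix Yeast Genome 2.0 arrays, 1 per genotype. The deposited log2 values are signals of single arrays that the authors had analysed by the Shanghai GeneTech Company. MAS5 is named in the labels, without a role. The normalization and scaling of the signals were not given in the sources used here. Values were not normalized again.

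The arrays held 10928 probe sets, 213 of them controls. A single gene symbol was given for 5518 and several for 20, and 2917 belonged to 2899 named *S. pombe* genes, by the array annotation and the names of assembly ASM294v3. Each of the 9 genes had 1 probe set. Of several probe sets of a gene, 1 was used, by type and then mean signal. The 95th percentile of the 2593 *S. cerevisiae* probe sets of an array was its background and served as a floor. Between 2855 and 2872 genes per array exceeded it, and a ratio was used if 1 of its 2 arrays or both did. The counts are of ratios of at least 2 and of at most 0.5, and there was no test.

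The pathway genes and the lists were chosen with earlier results of these data known. Named with values were the pathway genes, list members past 2-fold in at least 4 deletions or highest or lowest in their list, the 5 genes most like *ste11*, and the deleted genes. Other genes given with values (*isp4*, *map4*, *pyp1*, *ptc1* and the regulators lower in *meu29*Δ other than *atf1*) were chosen after their values were seen. The ratios of *mam1*, *sxa2* and other M markers given for *sgf73*Δ were also outside this rule. A search of promoters for Ste11 sites was not run. The scripts were tested on simulated data. They used matplotlib 3.10.9, scipy 1.17.1, pandas 2.3.3, numpy 2.4.6 and Python 3.11.15.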

Additional observations from a re-analysis of the deposited data

Results flagged for a closer look

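Of the 9 genes, 4 exceeded WT by at least 2-fold in 1 deletion and lay at least 2-fold below it in another, which marked them for a closer look. The log2 difference between the extremes was 4.19 for *rgs1* (*SPBC2A9.02*Δ against *SPAC3F10.17*Δ), 3.95 for *spk1* (*sgf73*Δ against *SPAC3F10.17*Δ), 3.06 for *ste11* and 2.59 for *ste4* (both *SPAC27D7.08c*Δ against *SPAC3F10.17*Δ). These differences do not use the WT array, and with 1 array per genotype they were not tested.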

How the results depend on the processing

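The counts of 19 ratios at least 2-fold higher and 5 lower moved by more than 1.5 times in few settings. With the median of the other 7 deletions in place of WT, 16 were higher and 11 lower, and *ste6* in *meu29*Δ turned from a log2 ratio of 1.00 to -0.15. At 1.5-fold, 25 were higher and 13 lower, and at 3-fold 9 and 1. Quantile normalization and a pseudocount of 50 signal units each gave 17 higher, the latter with 4 lower, and median scaling gave 18. In the other settings tried (no floor, a 99th percentile floor, both arrays above background, the mean of all probe sets, and leaving out the *pab1*Δ and *sec65*Δ arrays) the counts were 19 and 5. Apart from the 99th percentile floor, these settings could not have changed the counts. The 9 genes lay above background on all arrays, had 1 probe set each, and none passed 2-fold on the arrays left out. The ratio of *ste6* in *meu29*Δ fell short of 2-fold under median scaling, quantile normalization and the pseudocount, that in *SPAC3F10.17*Δ under the last 2 of these, and that of *spk1* in *SPAC3F10.17*Δ under the pseudocount. Median scaling shifted the median log2 ratio of all genes by at most 0.08. No paired analysis was possible because each genotype had 1 array, and no replicate could be left out for the same reason. Signals of the 9 genes were at least 85.4 against a background of at most 40.2, so the floor touches none of their values.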
